A study of Mus musculus with 12 samples.

Results

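The glutathione S-transferases and their microsomal and kappa relatives were followed in mice that lack exon 5 of Gdap1, a gene whose protein is itself a distant relative of these enzymes. The members were 10 genes, Gsta4, Gstm1, Gstm5, Gstm6, Gstp1, Gstt1, Gstz1, Gstk1, Mgst1 and Mgst3. Every probe set whose platform annotation gave exactly 1 symbol, and that symbol a member, was taken. This gave 15 probe sets among the 45037 tested, for 10 of 18193 genes with a probe set. Gstm1 had 4 of them, Mgst1 and Mgst3 had 2 each, and the other 7 genes had 1 each. No probe set that names several genes named a member.

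RNA came from untreated mice 2 months old and was hybridised to 12 Affymetrix arrays in 4 groups of 3. These were sciatic nerve of wild type mice, sciatic nerve of Gdap1 knock-out mice, motoneurons of wild type mice and motoneurons of Gdap1 knock-out mice, with the motoneurons isolated by laser dissection. The knock-out is a deletion of exon 5 and no tissue-specific driver is named for it. The labels call the arrays of a group biological replicates, and the design text says that samples were chosen for how much RNA they gave and how intact it was. The strain is not given in the sources used here. Values are log2 expression levels per probe set, so a difference of 1 is a doubling, and a level of one probe set was never set against that of another.

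Glutathione S-transferases join the tripeptide glutathione to reactive electrophiles, such as aldehydes formed from oxidised lipids, and some of them reduce lipid hydroperoxides. The cytosolic classes, named by Greek letters, share a fold in which an N-terminal thioredoxin-like domain binds glutathione. Gdap1 carries domains of that family in a protein anchored in the outer mitochondrial membrane, and its mutations cause Charcot-Marie-Tooth neuropathy. Kappa-class Gstk1, found in mitochondria and peroxisomes, and the membrane-embedded Mgst1 and Mgst3 bind the same cofactor with other folds. The antioxidant response element, bound by the transcription factor NRF2 with a small Maf partner, controls many detoxifying enzymes, transferases among them.

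The stretch of 250 bases before the annotated start is shown for 4 members, to let their regulatory sequence be read beside their values. Mgst1 and Mgst3 are shown because they marked the ends of the tissue comparison below, and Gstm5 and Gstp1 because they held the letters of a searched motif. RefSeq sequences of build GRCm38.p6 gave 14 promoters for 9 of the 10 genes, all but Gsta4, read on the strand of each gene. Capitals mark TGACNNNGC, the core of the antioxidant response element, or TGANTCA, the AP-1 site, both searched on both strands.
Mgst1, chr6:138140277-138140526, + strand: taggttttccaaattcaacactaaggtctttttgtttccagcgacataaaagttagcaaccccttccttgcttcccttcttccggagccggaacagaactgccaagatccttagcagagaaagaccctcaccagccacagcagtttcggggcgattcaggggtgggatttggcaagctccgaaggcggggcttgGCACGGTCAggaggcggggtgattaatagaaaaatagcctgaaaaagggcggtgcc
Gstm5, chr3:107895604-107895853, + strand: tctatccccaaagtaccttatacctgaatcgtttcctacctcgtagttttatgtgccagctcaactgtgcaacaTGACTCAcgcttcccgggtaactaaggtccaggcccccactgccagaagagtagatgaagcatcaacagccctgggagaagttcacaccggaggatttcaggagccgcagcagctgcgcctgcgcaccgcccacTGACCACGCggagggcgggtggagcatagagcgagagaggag
Gstp1, chr19:4037913-4038162, - strand: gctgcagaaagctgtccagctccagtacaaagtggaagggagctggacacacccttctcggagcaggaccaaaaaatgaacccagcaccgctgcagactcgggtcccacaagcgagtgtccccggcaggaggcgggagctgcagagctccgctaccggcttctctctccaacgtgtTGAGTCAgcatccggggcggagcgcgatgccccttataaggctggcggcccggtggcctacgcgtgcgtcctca
Mgst3, chr1:167393842-167394091, - strand: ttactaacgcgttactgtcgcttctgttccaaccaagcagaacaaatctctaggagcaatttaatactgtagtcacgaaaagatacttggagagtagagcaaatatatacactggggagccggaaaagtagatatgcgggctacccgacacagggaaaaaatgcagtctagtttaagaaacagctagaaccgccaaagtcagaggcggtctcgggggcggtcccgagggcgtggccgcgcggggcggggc
The antioxidant response element core was found in 2 of the 14 member promoters. These were that of Gstm5 (bases -42 to -34 before the start, + strand) and the Mgst1 promoter shown (bases -56 to -48, - strand). The other annotated promoter of Mgst1 held neither motif. The same letters stood in 10.2% of all 32851 promoters of that length. The AP-1 letters, which read alike on both strands, were found in Gstm5 (bases -176 to -170) and Gstp1 (bases -74 to -68), and in 6.75% of all promoters. No match overlapped a match of the other motif. The matches are descriptions of sequence, with no binding measured here.

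The arrays were first checked against their labels, on the deposited scale. Of 8 motoneuron markers, 7 were higher in motoneurons than in nerve of wild type mice, and the eighth, Chat, read 4.83 in wild type motoneurons, below the middle of each array. Markers of Schwann cells (7 of 7 measured), fibroblasts and perineurium (9 of 9), endothelium and mural cells (10 of 10), macrophages (8 of 8) and adipocytes (5 of 5) were lower in motoneurons. On that scale 63.7% of all genes were lower and 17.7% higher in wild type motoneurons. With each array centred on its median, the endothelial, macrophage and adipocyte counts stayed whole and 8 of 9 fibroblast markers were lower. The Schwann cell markers Pmp22, Mbp and S100b were then higher in motoneurons, which left 4 of 7 lower. After centring 20% of all genes were lower and 61.2% higher. Markers of other cells of the spinal cord were read in the captured samples too, where the oligodendrocyte and astrocyte lists averaged 10.5 to 11.4 and 10.3 to 11.0 per motoneuron array. In nerve they averaged 7.60 to 7.95 and 9.76 to 10.34 per array. On the deposited scale 7 of 9 oligodendrocyte markers were higher and 2 lower in wild type motoneurons. The 9 astrocyte markers did not share a direction, with 5 higher and 4 lower. The interneuron markers (4 of 5 measured) averaged 10.3 to 11.4 per motoneuron array and 4.17 to 5.64 per nerve array, and 4 of 4 were higher in motoneurons under all 3 scalings used below. Among them the glycine transporter Slc6a5 averaged 12.75 and the vesicular transporter Slc32a1 12.61 in wild type motoneurons. Xist, transcribed from the inactive X chromosome, was high in nerve wild type replicate 2 (12.49) and knock-out replicate 3 (12.54) and low in motoneuron knock-out replicate 2 alone (5.18), so both sexes were present in nerve and in knock-out motoneurons. The wild type motoneuron arrays were all high in Xist (9.90 to 10.38), so sex was not balanced in the genotype comparison of motoneurons. Motoneuron wild type replicate 3 stood with the knock-out arrays in some measures given below and with the wild type arrays in others. Gdap1 itself cannot check the genotype labels, because the series' design text places its probe sets outside the deleted exon.

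The medians of the nerve arrays lay between 8.29 and 8.40 and those of the motoneuron arrays between 6.53 and 6.59, which reads as separate normalization of the tissues. A tissue difference was therefore computed on the deposited scale, with each array centred on its median, and after quantile normalization of all arrays together. The median difference of all probe sets, motoneurons minus nerve in wild type, was -1.09 on the deposited scale, 0.67 after centring and 0.15 after quantile normalization. Each difference below is to be read against those medians. In the captured cells and in whole nerve alike, fewer cells of a type and less RNA per cell cannot be told apart.

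The transferases divided between tissues. Mgst1, Gstk1 and Gstt1 were far lower in motoneurons than in nerve, Gstm1 and Gstz1 were lower by a smaller amount, and Mgst3 was the one member whose leading probe set was higher in motoneurons under all 3 scalings. On the deposited scale 15 of the 15 member probe sets passed limma's test in wild type, 1 higher and 14 lower in motoneurons. Of all probe sets 82.1% passed, 14.3% higher and 67.9% lower, so the count by itself is close to the background. In knock-out mice 14 of 15 passed, 1 higher and 13 lower, against 82.7% of all probe sets, 15.2% higher and 67.5% lower. The member median was -2.25 in wild type and -2.19 in knock-out mice, beside -1.09 and -1.04 for all probe sets.

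After centring, 6 member probe sets were higher and 7 lower in wild type, beside 54.9% and 24.7% of all, and 6 higher and 6 lower in knock-out mice, beside 56.6% and 24.8%. After quantile normalization, 5 were higher and 8 lower in wild type, beside 39.6% and 32.9% of all, and 4 higher and 7 lower in knock-out mice, beside 40.5% and 33.6%. Fewer calls were common to the 3 scalings. In wild type 7 member probe sets were lower in all 3, 1 was higher in all 3 and 7 depended on the scaling. Those lower were Mgst1 (1415897_a_at), Gstk1, Gstt1, Gstz1 and 3 probe sets of Gstm1 (1416416_x_at, 1425627_x_at and 1448330_at). In knock-out mice 6 were lower in all 3, because Gstz1 missed the threshold after centring (limma adjusted p = 0.0698), and 1 was higher. Among all probe sets 24.2% were lower and 14.3% higher in all 3 scalings in wild type, and 24.4% and 15.2% in knock-out mice.

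Mgst1, a trimeric enzyme of the endoplasmic reticulum and outer mitochondrial membrane with transferase and peroxidase activity, showed the largest difference of the 10 genes. Its probe set 1415897_a_at (chromosome 6) read 13.77, 13.69 and 13.35 in the 3 wild type nerves and 13.58, 13.91 and 13.32 in the knock-out nerves. In motoneurons it read 8.06, 8.02 and 7.42 in wild type and 7.42, 6.78 and 7.02 in knock-out mice. All nerve arrays lay far above all motoneuron arrays, and within their own array the nerve levels stood at the 94.6th to 97.3rd percentile and the motoneuron levels at the 52.0th to 61.3rd. The difference of motoneurons minus nerve was -5.77 (SE 0.21, limma adjusted p = 2.21e-07) in wild type and -6.53 (SE 0.20, adjusted p = 1.89e-08) in knock-out mice. After centring it was -4.01 and -4.75, and after quantile normalization -4.81 and -5.44. In wild type these sizes are 54.5-fold as deposited, 16.1-fold after centring and 28.0-fold after quantile normalization.

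The second Mgst1 probe set did not follow the first. Probe set 1415898_at read 4.52, 4.12 and 4.25 in wild type nerve and 3.97, 3.88 and 3.85 in wild type motoneurons, between the 7.63rd and 19.3rd percentile of its arrays. It lay near the bottom of the scale in both tissues. Its tissue difference of -0.40 (limma adjusted p = 0.0373) on the deposited scale was 1.36 after centring and 0.89 after quantile normalization, so it has no settled direction.

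Gstk1, the kappa-class enzyme of mitochondria and peroxisomes, and Gstt1, a theta-class enzyme that acts on small halogenated compounds, followed Mgst1 in size. Gstk1 (1452823_at, chromosome 6) read 13.60, 13.65 and 13.53 in wild type nerve, 13.43, 13.77 and 13.35 in knock-out nerve, 9.29, 9.18 and 9.49 in wild type motoneurons and 9.65, 8.99 and 9.40 in knock-out motoneurons. The tissues lay apart by about 4 log2 units, with differences of -4.27 (SE 0.12, limma adjusted p = 9.82e-08) in wild type and -4.17 (SE 0.18, adjusted p = 9.25e-08) in knock-out mice. Gstt1 (1418186_at, chromosome 10) read 12.83, 13.14 and 12.53 in wild type nerve, 12.81, 13.01 and 12.60 in knock-out nerve, 8.60, 8.50 and 9.21 in wild type motoneurons and 9.18, 9.50 and 9.14 in knock-out motoneurons. No motoneuron array reached the lowest nerve array of either gene. The Gstt1 difference was -4.06 (SE 0.24, limma adjusted p = 1.62e-06) in wild type and -3.54 (SE 0.15, adjusted p = 7.30e-08) in knock-out mice. Centring, the scaling that lifts motoneurons most, left wild type differences of -2.51 for Gstk1 and -2.30 for Gstt1, which are 5.71-fold and 4.93-fold.

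**Figure D1:**
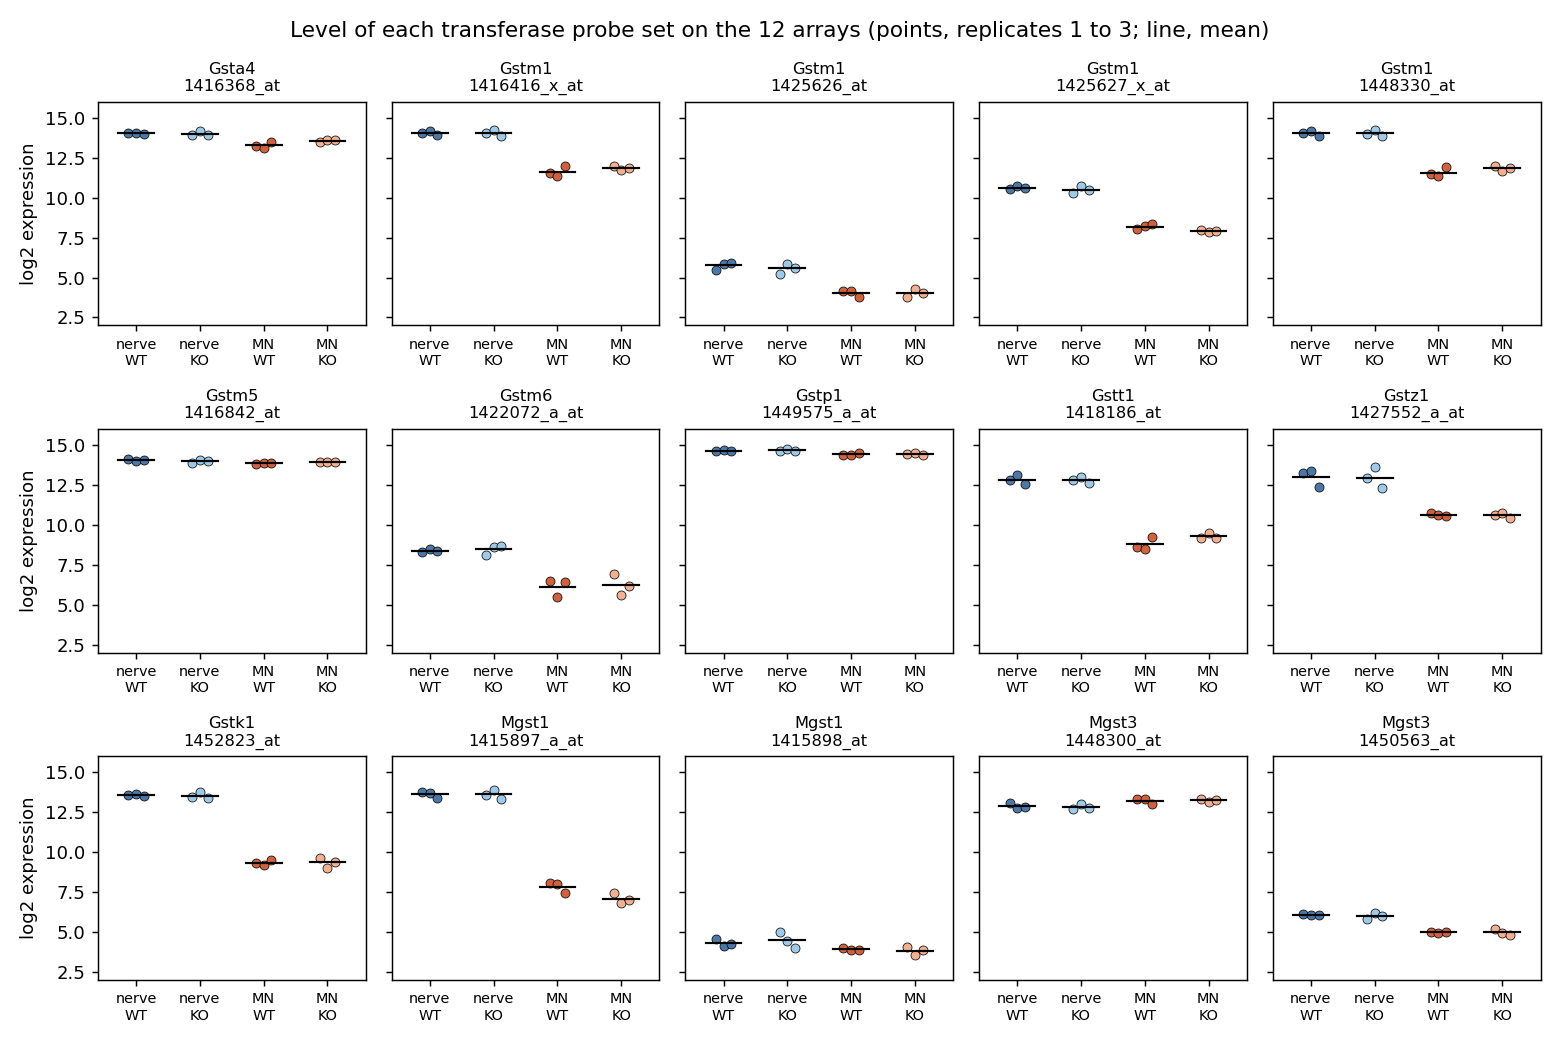
Deposited log2 expression (vertical axis, 2 to 16) of the 15 transferase probe sets in the 4 groups, with 1 point per array and a line at the mean of 3 arrays. Mgst1 (1415897_a_at), Gstk1 and Gstt1 fall furthest from nerve to motoneurons, and Gstm5, Gstp1 and Mgst3 (1448300_at) stay near the same level.

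Gstm1, a mu-class enzyme, was read by 4 probe sets. Both bright ones were nearly alike, and 1448330_at (chromosome 3) read 14.04, 14.20 and 13.88 in wild type nerve, 14.02, 14.25 and 13.88 in knock-out nerve, 11.45, 11.33 and 11.93 in wild type motoneurons and 11.96, 11.69 and 11.84 in knock-out motoneurons. Its tissue difference was -2.47 in wild type and -2.22 in knock-out mice (limma adjusted p = 3.23e-06 and 1.68e-07), and that of 1416416_x_at was -2.42 and -2.19. Probe set 1425627_x_at, at a mean of 10.61 in wild type nerve and 8.19 in wild type motoneurons, differed by -2.42 in wild type and -2.58 in knock-out mice. The fourth, 1425626_at, was dim in both tissues (means 5.76 and 4.02 in wild type), and its deposited difference of -1.74 became 0.021 after centring. The suffix x_at marks probe sets with probes that can also match other transcripts, and the mu-class genes are paralogs, so part of a Gstm1 or Gstm6 signal may belong to a neighbour.

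Gstm6, another mu-class member, and Gstz1, the zeta-class enzyme that isomerises maleylacetoacetate in tyrosine breakdown, lay in the middle of the order. Gstm6 (1422072_a_at, chromosome 3) averaged 8.38 ± 0.071 (SD, n = 3) in wild type nerve, 8.47 ± 0.30 in knock-out nerve, 6.13 ± 0.57 in wild type motoneurons and 6.25 ± 0.66 in knock-out motoneurons. Its motoneuron arrays spread from 5.47 to 6.94, more widely than those of any other member, and its deposited difference of -2.25 in wild type lost its call under both other scalings (adjusted p = 0.144 and 0.151 by limma). Gstz1 (1427552_a_at, chromosome 12) averaged 12.99 ± 0.54 in wild type nerve and 10.63 ± 0.086 in wild type motoneurons (SD, n = 3). Its difference was -2.36 in both genotypes on the deposited scale, -0.60 after centring and -1.67 after quantile normalization in wild type.

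Gsta4, Gstm5 and Gstp1 were bright in both tissues, and the direction of their tissue difference turned with the scaling. Gsta4, an alpha-class enzyme with high activity towards the lipid aldehyde hydroxynonenal, stood at the 97.2nd to 98.1st percentile of the nerve arrays and the 96.1st to 97.8th of the motoneuron arrays. Its wild type difference was -0.75 as deposited, 1.01 after centring and -0.30 after quantile normalization. Gstm5 (1416842_at, chromosome 3), a mu-class enzyme, averaged 14.06 ± 0.056 in wild type nerve and 13.85 ± 0.030 in wild type motoneurons (SD, n = 3), a difference of -0.21 that was 1.55 after centring and 0.19 after quantile normalization. In knock-out mice the deposited Gstm5 difference was -0.054 (limma adjusted p = 0.327), the one member probe set that did not pass there. Gstp1 (1449575_a_at, chromosome 19), the pi-class enzyme, stood between the 99.2nd and the 99.7th percentile of every array, and its wild type difference was -0.23, 1.53 and 0.24 in the same order of scalings. A close paralog, Gstp2, had no probe set of its own with 1 symbol, so the Gstp1 signal may hold both.

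Mgst3, a membrane enzyme with transferase and peroxidase activity, ran the other way. Probe set 1448300_at (chromosome 1) read 13.08, 12.74 and 12.82 in wild type nerve and 13.35, 13.32 and 12.99 in wild type motoneurons. In knock-out mice it read 12.67, 12.97 and 12.75 in nerve and 13.30, 13.12 and 13.25 in motoneurons. One wild type motoneuron array fell within the range of the wild type nerves, and in knock-out mice every motoneuron array lay above every nerve array. The difference was 0.34 (SE 0.13, limma adjusted p = 0.0372) in wild type and 0.43 (SE 0.091, adjusted p = 0.00196) in knock-out mice, 2.10 and 2.21 after centring, and 0.88 and 0.996 after quantile normalization. The wild type call on the deposited scale ended without nerve wild type replicate 2 (adjusted p = 0.111) or 3 (0.0923), without motoneuron wild type replicate 1 (0.128) or 2 (0.115), and without a mean trend (0.0873). The dim probe set 1450563_at differed by -1.10 as deposited and by 0.66 and 0.72 under the other scalings in wild type.

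**Figure D2:**
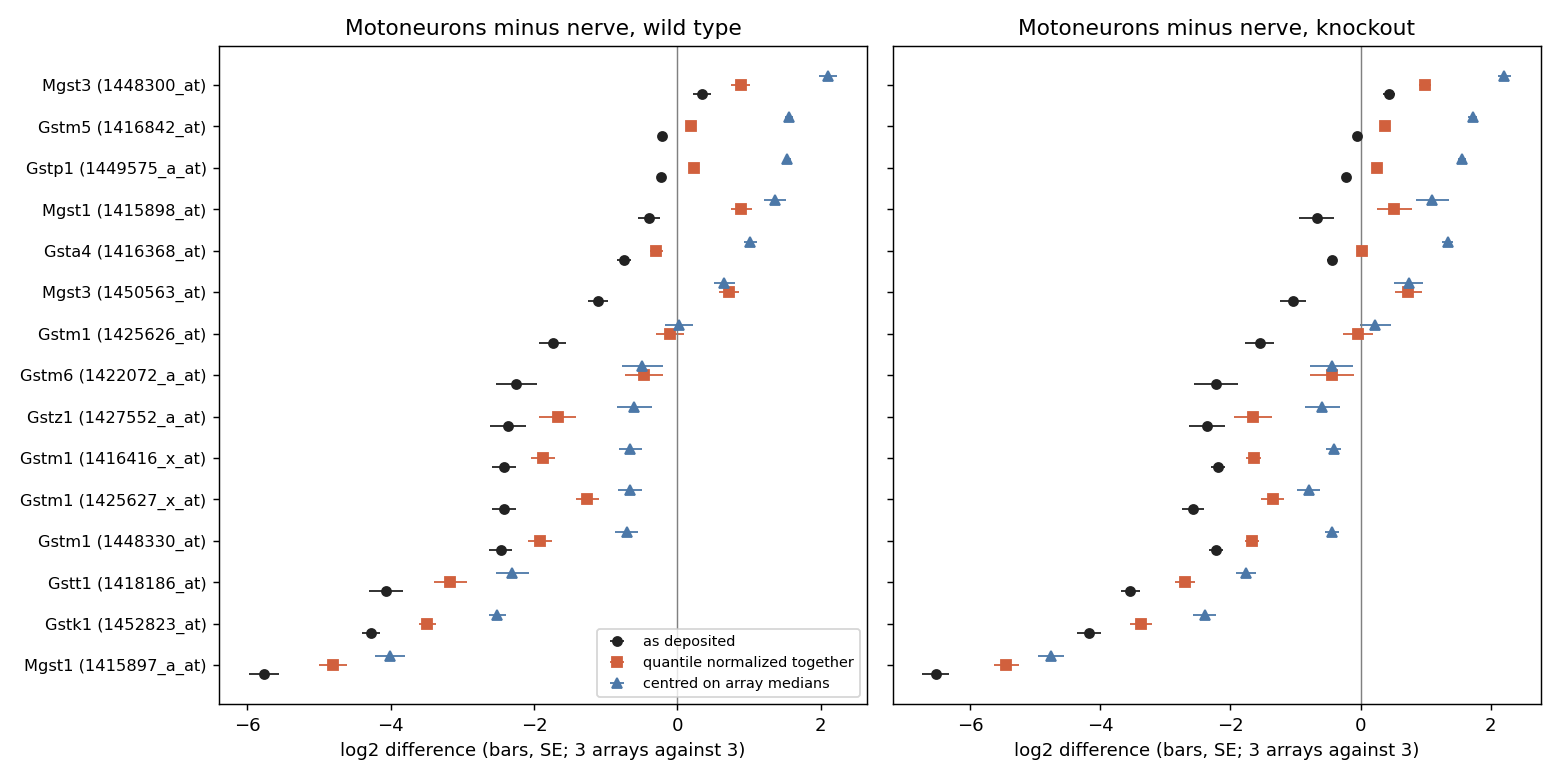
Difference of motoneurons minus nerve (log2, horizontal axis, bars are SE) for each transferase probe set in wild type (left) and knock-out mice (right), on the deposited scale, after quantile normalization of all arrays and after centring on array medians. Mgst1 (1415897_a_at), Gstk1 and Gstt1 lie below 0 and Mgst3 (1448300_at) above 0 in all 3 scalings, and probe sets such as Gstm5 and Gstp1 lie on either side of 0.

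The cell types of the samples moved with these differences. The adipocyte list averaged 13.2 to 14.2 per nerve array and 4.69 to 4.87 per motoneuron array, the fibroblast list 14.2 to 14.3 and 6.94 to 7.36, and the endothelial list 11.8 to 11.9 and 6.49 to 7.14. As log2 of the summed linear levels, adipocyte markers gave 16.2 to 16.8 in nerve and 7.16 to 7.90 in motoneurons, and motoneuron markers 10.6 to 11.4 and 16.1 to 16.3. The part of each cell type in the transferase differences was not tested. The gene closest to Mgst1 over the 12 centred arrays was Elk3 (Pearson r = 0.9969), then Fkbp7 (0.9960) and Nid1 (0.9956), with 67 of 11982 genes above 0.99. For Mgst3 these were Gtf2b, Ssu72 and Mrps10 (0.9985 to 0.9982), with 919 genes above 0.99, and for Gsta4 they were Pex10, Psma7 and Dmac1 (0.9965 to 0.9963), with 160. The points share their tissue and their arrays, so the correlations are descriptions.

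Gdap1 and its paralog Gdap1l1 were set beside the members as the family's relatives in this study. Gdap1 probe set 1423328_at averaged 5.93 ± 0.43 in wild type nerve and 13.34 ± 0.040 in wild type motoneurons (SD, n = 3), a difference of 7.41 (SE 0.23, limma adjusted p = 1.20e-07). Of the 4 Gdap1 probe sets 3 were higher in motoneurons, and 1437425_at differed by -0.33 (adjusted p = 0.0860). Both Gdap1l1 probe sets were higher, by 5.34 and 6.08. Between genotypes no Gdap1 probe set passed in either tissue. In motoneurons 1423329_at read 9.09, 8.89 and 9.21 in wild type and 9.88, 9.62 and 9.80 in knock-out mice. Its difference was 0.70 (limma adjusted p = 0.123) with groups that did not overlap, and 1423328_at differed by -0.025 (adjusted p = 0.863). In nerve the 4 Gdap1 differences ran from -0.076 to 0.29. Gdap1l1 probe set 1424935_at was higher in knock-out mice without overlap in motoneurons (0.34) and in nerve (0.19), and 1455443_at overlapped in both tissues. Of all probe sets 22.5% in motoneurons and 7.26% in nerve had groups that did not overlap. The tissue direction of the Gdap1 and Gdap1l1 probe sets higher in motoneurons was, on that deposited scale, opposite to that of Mgst1, Gstk1 and Gstt1 in the same arrays.

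Other genes of the family and of glutathione metabolism were counted from lists, with 1 probe set per gene, on the deposited scale. Of 31 measured relatives of the superfamily, 5 were higher and 23 lower in wild type motoneurons, with a median of -2.39, and 7 and 23 in knock-out mice. Gdap1 and Gdap1l1, described above, were among the higher relatives. The 10 members counted the same way gave 1 higher and 9 lower with a median of -2.31, and all 18193 genes gave 17.7% higher and 63.7% lower with a median of -0.90. Gstm2, a mu-class transferase, differed by -6.82, and Gstt2, a theta-class transferase, differed by -5.34. Of 16 genes that make or recycle glutathione, 4 were higher and 7 lower (median -0.37). Among them the dipeptidase Dpep1 differed by -8.59 and Ggt7, of the gamma-glutamyl transferase family, by 3.92. Of 22 glutathione-using enzymes and transporters, 4 were higher and 13 lower (median -0.74), with the peroxidase Gpx8 at -6.48. Of 23 genes of the NRF2 pathway, 3 were higher and 17 lower (median -0.90), and Nfe2l2, which encodes NRF2, differed by -5.08. Gclc, Gclm and Slc7a11 stood on this list and on that of synthesis and recycling. Gclc and Gclm were counted among the higher genes of both. The list medians moved with the scaling. After centring they were -0.63 for the relatives, 1.39 for glutathione synthesis and recycling, 1.02 for the glutathione-using genes and 0.86 for the NRF2 pathway, beside 0.86 for all genes and -0.55 for the 10 members.

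In sciatic nerve no transferase differed between genotypes past the threshold. Of the 15 member probe sets 0 passed limma's test, 0 had an unadjusted p under 0.05 and none had groups that did not overlap. Of all probe sets 0% passed, 2.31% had an unadjusted p under 0.05 and 7.26% had groups that did not overlap. The member differences, knock-out minus wild type, ran from -0.19 (Gstm1, 1425626_at) to 0.19 (Mgst1, 1415898_at), with 6 above and 9 below 0 and a median of -0.026, beside 0.010 for all probe sets. Their 95% intervals set the size that these arrays could still hold, from -0.11 to 0.13 for Gstp1 and from -0.90 to 0.83 for Gstz1. Gstp1 read 14.61 to 14.73 in nerve, where the highest value of an array was 15.52 to 15.55. Whether levels so near the top of the scale narrow a difference was not tested. Mgst1 (1415897_a_at) differed by 0.0027 with an interval of -0.39 to 0.39. The spiked bioB control was lower in every knock-out nerve array, with values given below, and its part was not tested.

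Gstz1 had the widest interval, and its nerve arrays split in both genotypes. It read 13.22, 13.38 and 12.37 in wild type nerve and 12.93, 13.63 and 12.32 in knock-out nerve, and the arrays numbered 3 lay below the other 4. The same arrangement held for 6 of the 15 member probe sets, Gstz1, Gstt1, Gstp1, Mgst1 (1415897_a_at) and the bright Gstm1 pair, and the reverse for 0 of 15. Of all probe sets 11.6% had both arrays below and 12.3% had both above the other 4, and the arrangement was picked after the values were seen. The adipocyte list, 5 of 7 markers measured, averaged 13.88, 14.12 and 13.26 in wild type nerve and 13.80, 14.21 and 13.23 in knock-out nerve, lowest in the same arrays. Also lowest there were the macrophage list (12.73, 13.14 and 12.59 in wild type, 12.79, 13.04 and 12.67 in knock-out nerve) and the endothelial list. The endothelial list averaged 11.94, 11.92 and 11.76 in wild type and 11.88, 11.92 and 11.76 in knock-out nerve. The Schwann and myelin list averaged 14.50, 14.49 and 14.67 in wild type and 14.58, 14.49 and 14.68 in knock-out nerve, highest in the arrays numbered 3. Skeletal muscle markers (8 of 8 measured) varied most of all lists among the nerve arrays, at 13.95, 8.37 and 12.88 in wild type and 11.19, 10.04 and 10.91 in knock-out nerve. Of these 8, 7 had lower values in knock-out nerve (median -0.87) and none passed. The part of adipose, macrophage, endothelial, Schwann cell and muscle RNA in these transferase values was not tested.

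**Figure D3:**
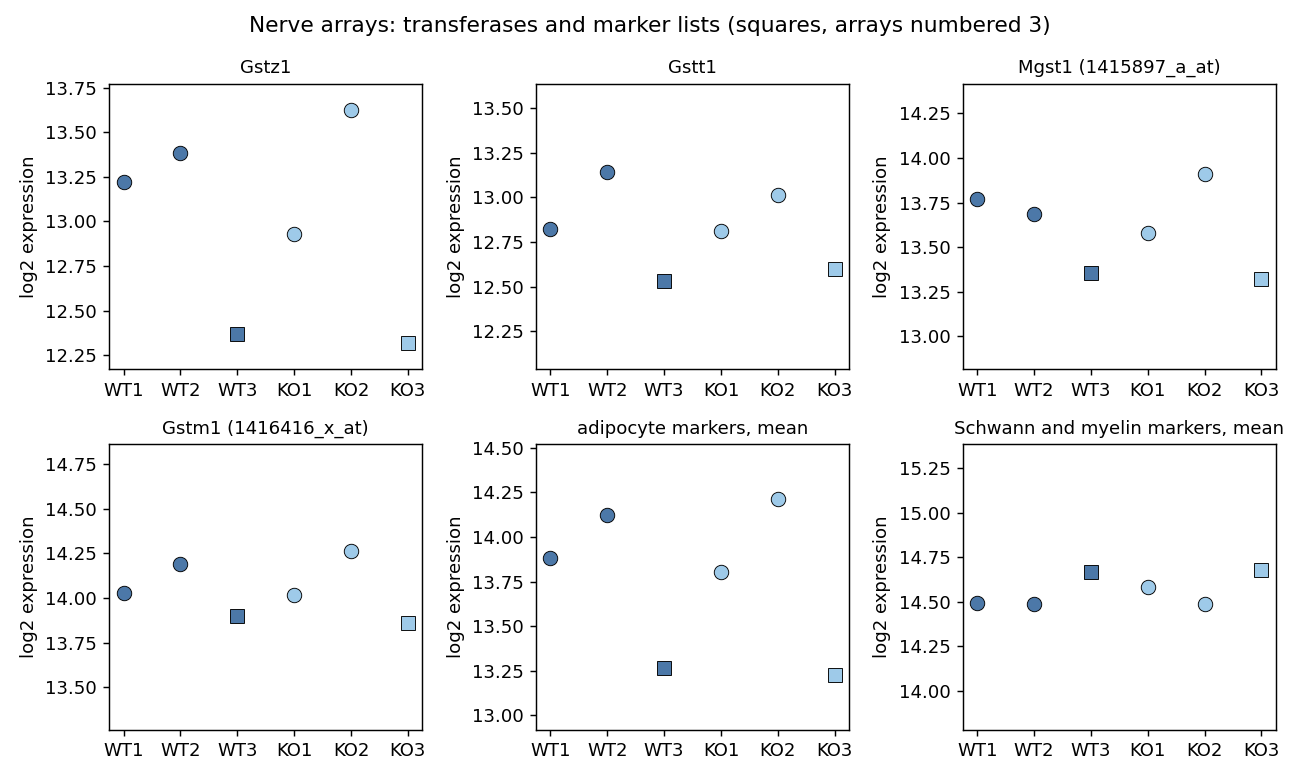
Log2 expression of Gstz1, Gstt1, Mgst1 and Gstm1 and the mean of the adipocyte and the Schwann and myelin markers in the 6 nerve arrays, all vertical axes spanning the same range, with squares for the arrays numbered 3. Gstz1 reads 12.37 and 12.32 in the squares and at least 12.93 in the other arrays, and the adipocyte mean is lowest in the same squares.

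In motoneurons the differences of the same comparison spread more widely, from -0.76 to 0.50, and none passed the threshold with all arrays. Not every probe set differed more than in nerve, and those of Mgst3 and Gstk1, for example, differed less. Of the 15 member probe sets 0 passed limma's test and 2 had an unadjusted p under 0.05, beside 0% and 17% of all probe sets. Groups did not overlap for 3 of the 15, Gsta4 and Gstm5 with higher and Gstm1 (1425627_x_at) with lower values in knock-out mice, beside 22.5% of all probe sets (12.7% higher and 9.77% lower). Differences were above 0 for 10 and below 0 for 5, with a median of 0.025, beside 0.039 for all probe sets. The largest, by size, were those of Mgst1 (1415897_a_at), Gstt1 and Gsta4.

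Gsta4 (1416368_at, chromosome 9) read 13.24, 13.13 and 13.47 in wild type motoneurons and 13.50, 13.59 and 13.61 in knock-out motoneurons. Every knock-out array lay above every wild type array, with the third wild type array closest to them. The difference was 0.28 (95% interval 0.078 to 0.49, limma adjusted p = 0.183), the smallest adjusted p of the members. In nerve Gsta4 read 14.08, 14.05 and 13.96 in wild type and 13.95, 14.16 and 13.89 in knock-out mice, and those groups overlapped.

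Mgst1 (1415897_a_at) differed the other way, by -0.76 in motoneurons (95% interval -1.37 to -0.15, limma adjusted p = 0.214). Its arrays, given above, ranged from 7.42 to 8.06 in wild type and from 6.78 to 7.42 in knock-out mice, and the groups met at the third wild type array. Gstt1 differed by 0.50 (95% interval -0.031 to 1.03, adjusted p = 0.320), with wild type arrays at 8.60, 8.50 and 9.21 and knock-out arrays at 9.18, 9.50 and 9.14. The third wild type array again stood among the knock-out arrays. Knock-out replicate 2, the Xist-low array, held the lowest Mgst1 (6.78) and the highest Gstt1 value (9.50) of the motoneuron arrays. The same array had the lowest oligodendrocyte (10.54) and astrocyte (10.33) marker means of the motoneuron arrays. The part of sex or of other cells in these extremes was not tested.

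Probe sets of Gstm1 did not share a direction. The bright pair, 1448330_at and 1416416_x_at, differed by 0.26 and 0.24 (limma adjusted p = 0.464 and 0.506). Probe set 1425627_x_at, with wild type arrays at 8.02, 8.22 and 8.32 and knock-out arrays at 7.99, 7.84 and 7.94, differed by -0.26 (adjusted p = 0.496). Gstm5 read 13.82, 13.85 and 13.88 in wild type and 13.91, 13.91 and 13.94 in knock-out motoneurons, a difference of 0.067 (95% interval -0.023 to 0.16, adjusted p = 0.427), small although its groups lay apart. The differences of Gstk1, Gstp1 and Gstz1 were 0.026, 0.025 and -0.034, those of both Mgst3 probe sets were 0.0041 and -0.0026, and that of Gstm6 was 0.12 with an interval of -0.81 to 1.05.

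**Figure D4:**
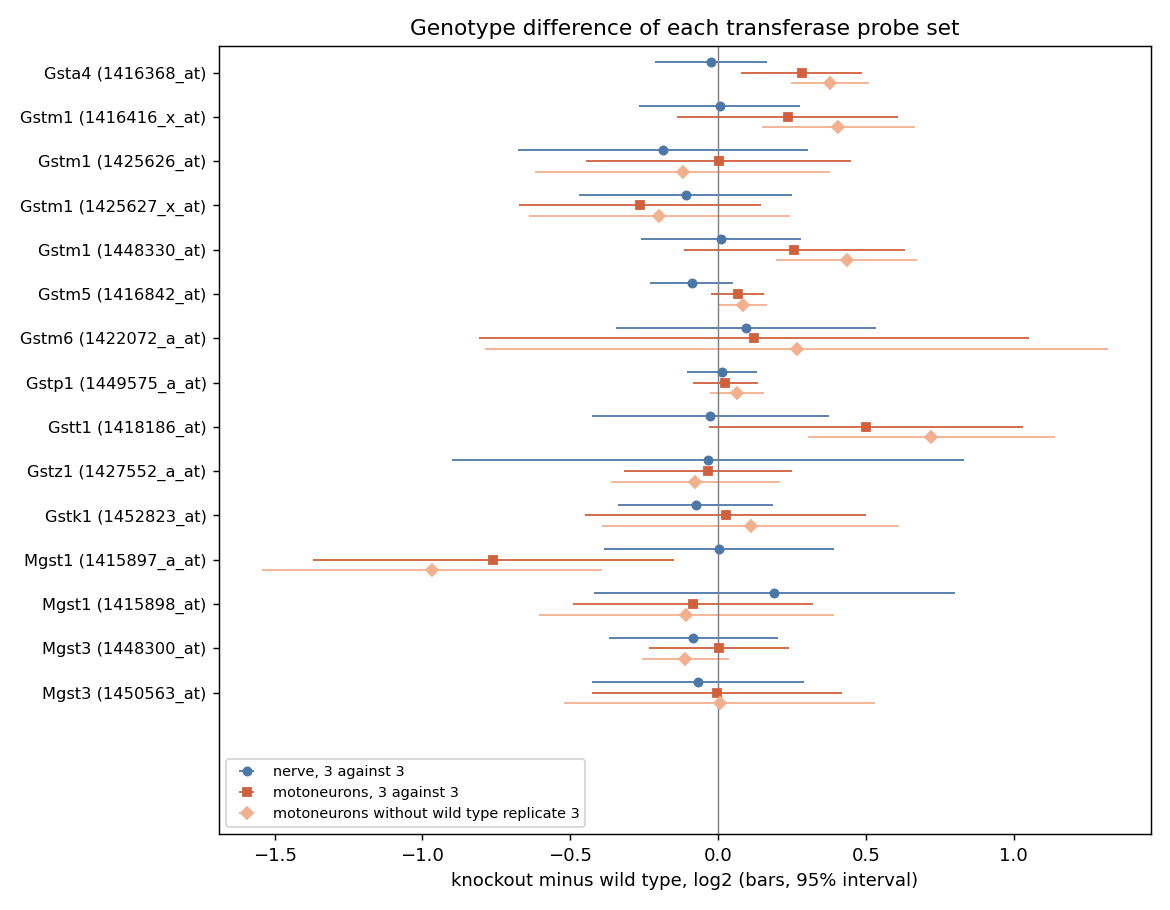
Difference of knock-out minus wild type (log2, horizontal axis, bars are 95% intervals) of the 15 transferase probe sets in nerve, in motoneurons, and in motoneurons without wild type replicate 3. The nerve points stay between -0.19 and 0.19, and in motoneurons Gsta4 (0.28), Gstt1 (0.50) and Mgst1 (1415897_a_at, -0.76) lie furthest from 0.

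These motoneuron values turned on wild type replicate 3. Some measures placed it with the knock-out arrays. Its correlation across probe sets averaged 0.989 with the knock-out arrays and 0.987 with the other wild type arrays. That gap is small, and no such averages were computed for the other arrays to compare it with. The 18S RNA control of wild type replicate 3 read 14.64, beside 13.94 and 13.77 in the other wild type and 14.66 to 14.67 in the knock-out motoneurons. Without it 4 member probe sets passed limma's test, against 10.3% of all probe sets (4.68% higher and 5.64% lower). Gsta4 rose by 0.38 (adjusted p = 0.00994), Gstm1 (1448330_at) by 0.44 (adjusted p = 0.0385) and Gstt1 by 0.72 (adjusted p = 0.0460) in knock-out motoneurons, and Mgst1 (1415897_a_at) differed by -0.97 (adjusted p = 0.0496). The nearly equal Gstm1 probe set 1416416_x_at, at 0.41, did not pass (adjusted p = 0.0615). In the 4 probe sets that passed, the array left out was the wild type array nearest to or among the knock-out arrays. Leaving it out widens such differences by construction, so these calls show only how far the values rest on 1 array. With all arrays kept and weighted by limma, Gsta4 was the one member that passed (0.31, adjusted p = 0.0394).

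Some other measures of the motoneuron arrays moved with genotype. The spiked bioB control read 11.10, 11.32 and 11.29 in wild type and 10.53, 10.29 and 10.45 in knock-out motoneurons. It was lower in knock-out nerve too, at 10.35, 10.48 and 10.43 beside 11.68, 11.43 and 11.46 in wild type nerve, so this control split by genotype in both tissues. All 10 endothelial and mural markers and all 9 oligodendrocyte markers had lower values in knock-out motoneurons, with medians of -0.38 and -0.35. So did 6 of 9 astrocyte markers (median -0.38), and none of these markers passed. Of all genes 52.7% had values above 0. The endothelial list averaged 6.89, 6.84 and 7.14 in wild type and 6.49, 6.59 and 6.52 in knock-out arrays. The oligodendrocyte list averaged 11.44, 10.85 and 11.17 in wild type and 11.01, 10.54 and 10.86 in knock-out arrays, so its groups overlapped. In bioB and in the endothelial mean, wild type replicate 3 stood with the wild type arrays. The interneuron list averaged 11.41, 11.32 and 10.31 in wild type and 11.17, 10.42 and 11.35 in knock-out arrays. Its lowest mean was thus that of wild type replicate 3, and its groups overlapped. The part of these measures in the Mgst1, Gsta4 and Gstt1 values was not tested.

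**Figure D5:**
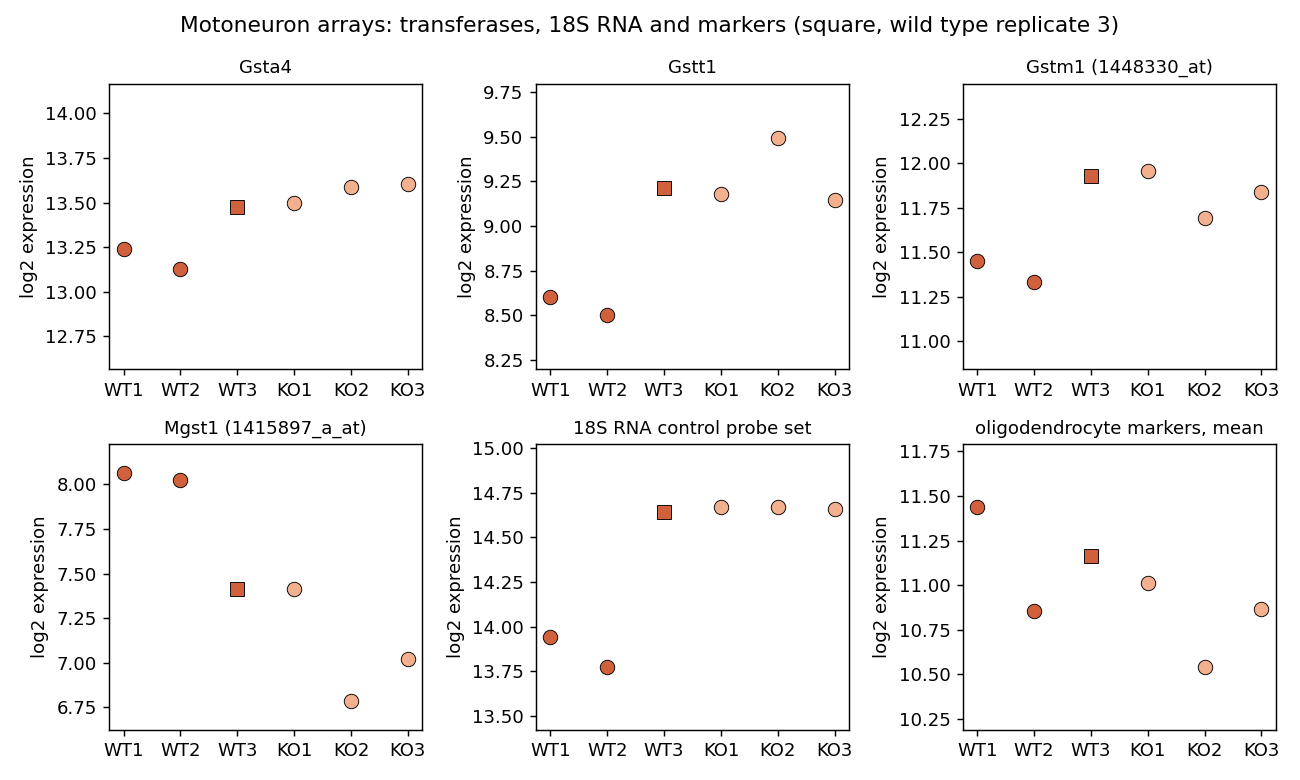
Log2 expression of Gsta4, Gstt1, Gstm1 and Mgst1, of the 18S RNA control probe set and of the mean of the oligodendrocyte markers in the 6 motoneuron arrays, all vertical axes spanning the same range, with a square for wild type replicate 3. For Gstt1 the square (9.21) lies among the knock-out arrays (9.14 to 9.50), and the 18S control reads 14.64 in the square and 14.66 to 14.67 in the knock-out arrays.

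Whether the genotype effect differed between tissues was tested as an interaction over 12 arrays, motoneuron effect minus nerve effect. Of the 15 member probe sets 0 passed limma's test, beside 0% of all, and 3 had an unadjusted p under 0.05, beside 7.54% of all. These were Gsta4 at 0.31 (95% interval 0.032 to 0.58, adjusted p = 0.641), Mgst1 (1415897_a_at) at -0.76 (-1.45 to -0.078, adjusted p = 0.641) and Gstm5 at 0.16 (0.0040 to 0.31, adjusted p = 0.658). Without motoneuron wild type replicate 3, 0 passed again, and 0.528% of all probe sets did.

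In the surrounding pathway no gene passed between genotypes, as among all 18193 genes, of which 0% passed in either tissue. None of the 31 superfamily relatives, 16 genes of glutathione synthesis and recycling, 22 glutathione-using genes or 23 NRF2 pathway genes passed limma's test in either tissue. In motoneurons the smallest adjusted p values were 0.124 for Txn1, thioredoxin (-0.20), 0.125 for Gsr, glutathione reductase (-0.57), 0.130 for Hagh, the glyoxalase that releases glutathione from its lactoyl ester (0.27), and 0.130 for Gdap1l1 (0.34). Gclm, the modifier subunit of the enzyme that starts glutathione synthesis, differed by -0.53 (adjusted p = 0.183), and the mu-class transferase Gstm3 by 0.89 (adjusted p = 0.173). In motoneurons 52.7% of all genes had values above 0, with a median of 0.019. Values were above 0 for 16 of 22 glutathione-using genes (median 0.13), 6 of 16 genes of synthesis and recycling (-0.046), 16 of 31 relatives (0.0059) and 12 of 23 NRF2 pathway genes (0.029).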

How the data were processed

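Sciatic nerve and captured motoneurons of wild type and Gdap1 knock-out mice were each measured on 3 arrays. The deposited values are log2 expression per probe set, made with Affymetrix Expression Console 1.1 per the submitters' processing notes. How they were summarized and corrected for background is not given in the sources used here, and the agreement of array quantiles within but not between tissues was read as separate normalization. Of 45101 probe sets, 64 controls were left out and 45037 tested. Symbols came from the platform annotation, updated through RefSeq (GRCm38.p6).

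Each comparison was fitted on all tested probe sets with limma 3.58.1 in R 4.3.3 (lmFit, eBayes with a mean trend, two-sided, Benjamini-Hochberg, threshold 0.05), which was tested on simulated data. Gene lists used the probe set with the highest mean per gene. Values in every array are given for members whose genotype groups lay apart, that passed between genotypes, or whose tissue difference was among the largest or differed in sign between probe sets. Each list names up to 4 genes by smallest unadjusted p. Members and lists were chosen with earlier results of these data known. The scalings of the marker and pathway lists were added after seeing the data. Alternatives covered scaling, trend, filter, weights, covariates, block and each array left out. The identity of the proteins was not analysed here. The number of arrays limits the precision.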

Additional observations from a re-analysis of the deposited data

How the results depend on the processing

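In nerve the count of 0 member probe sets past limma's threshold held in every alternative run, including one chosen after seeing the data that left out both Xist-high arrays, and 0 had an unadjusted p under 0.05 in the fit reported. In motoneurons the count was 1 with array weights and ranged from 0 to 4 over arrays left out, reaching 4 without wild type replicate 3. The interaction count of 0 held in every alternative run. Counts for motoneurons against nerve ranged from 13 to 14 over arrays left out in both genotypes. Over the other settings they ranged from 11 to 15 in wild type and from 10 to 14 in knock-out mice.

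Some tissue differences changed sign with the scaling, and not every value of the new sign passed the threshold. In wild type, centring gave 1.01 for Gsta4, 0.021 for Gstm1 (1425626_at), 1.55 for Gstm5, 1.53 for Gstp1, 1.36 for Mgst1 (1415898_at) and 0.66 for Mgst3 (1450563_at). Quantile normalization gave 0.19 for Gstm5, 0.24 for Gstp1, 0.89 for Mgst1 (1415898_at) and 0.72 for Mgst3 (1450563_at). In knock-out mice, centring gave 1.34, 0.23, 1.72, 1.56, 1.101 and 0.74 for the 6 probe sets in the same order. Quantile normalization gave 0.022 for Gsta4, 0.38 for Gstm5, 0.25 for Gstp1, 0.52 for Mgst1 (1415898_at) and 0.73 for Mgst3 (1450563_at). The centred values of Gstm1 (1425626_at) did not pass in wild type or knock-out mice (limma adjusted p = 0.922 and 0.398). Nor did the quantile normalized values of Gsta4 (0.803) and Mgst1 (1415898_at, 0.117) in knock-out mice. These lost their call and were not called in the other direction. With no shared scale between tissues the direction of these probe sets stays unknown.

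Of the alternative values of single probe sets, 178 of 206 in wild type and 184 of 206 in knock-out mice kept direction and side of the threshold between tissues, and 201 of 206 did for genotype in motoneurons. A change of sign was counted as reversed where the value was called in one of the fits. Among values called in neither, the sign changed in 33 of 222 for nerve, 34 of 206 for motoneurons and 25 of 281 for the interaction. Over the alternatives the motoneuron genotype difference ranged from 0.21 to 0.38 for Gsta4 (limma adjusted p = 0.00994 to 0.423), from -0.97 to -0.55 for Mgst1 (1415897_a_at, 0.0496 to 0.507) and from 0.35 to 0.72 for Gstt1 (0.0460 to 0.638).

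Replicate numbers were not taken as pairs, because not every same-numbered pair correlated above 0.1. Deviations of same-numbered nerve arrays correlated at 0.026, 0.305 and 0.216, the last pair holding the arrays that read alike in several members, and those of motoneuron arrays at 0.090, -0.064 and -0.079. With a replicate block the counts were 0 in nerve, 0 in motoneurons, 0 for the interaction and 14 between tissues in each genotype, and the wild type call of Mgst1 (1415898_at) ended (adjusted p = 0.0525).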
